A study of Mus musculus with 10 samples.

Results

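The immunoglobulin variable segments of the mouse were followed in RNA of 10 blood libraries. The members were chosen by their summed counts, as the rows of the deposited table whose symbol starts with Ighv, Igkv or Iglv and whose counts add up to at least 50 over the 10 libraries. This rule kept 215 segments of the 283 such rows, in a table of 30984 gene identifiers. Of the members, 106 of 143 listed Ighv rows belong to the heavy chain, 106 of 137 Igkv rows to the kappa light chain, and 3 of 3 Iglv rows to the lambda light chain. The other 68 rows fell below the minimum. Just inside it stood Igkv13-78-1 with 60 counts, Igkv11-106 with 61 and Igkv7-33 with 61, and just outside it Igkv14-126-1 with 47, Igkv12-47 with 43 and Ighv8-11 with 42.

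By their treatment label, 6 libraries are burn wound healing samples (burn), and 4 carry that name with the letters NC added (NC). The labels do not expand NC, and they give no mouse strain, genotype, age or time after injury. The series title speaks of manganese chloride, but no sample label assigns it to a library. The labels give whole blood as the tissue and add the words lymphocyte and monocytes. Since no label ties the libraries to separate animals, each p-value reflects the spread among these libraries, and that spread may be technical. Library totals ran from 30677206 counts in NC 3 to 36379663 in burn 4. The 9 B cell markers Ms4a1, Cd79a, Cd79b, Pax5, Cd22, Fcer2a, Cr2, Blk and Bank1 had no library at 0 and added up to 2061 to 3104 CPM (counts scaled to the library total) in burn and 1926 to 2556 CPM in NC. B cell RNA was thus present in every library. The cell type label reads monocytes, but the labels also name lymphocyte and whole blood.

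An antibody chain gets its variable domain from 1 variable segment, which a developing B cell joins to short D and J segments in the heavy chain, or to a J segment in a light chain. The joined exon is transcribed together with a constant region such as Ighm or Igkc. Each B cell normally uses a single heavy and a single light chain rearrangement, and its descendants carry the same ones. In blood, RNA of these segments comes from circulating B cells and, at far more transcripts per cell, from plasma cells, which secrete antibody. Segment usage is the share of all segment counts in a library that fall on a given segment, so it does not depend on how much B cell RNA the library holds.

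On the mm10 build the Ighv members lie at chr12:113578504-116000461, the Igkv members at chr6:67609713-70704177 and the Iglv members at chr16:19085017-19260859. GENCODE types 198 of them as variable gene segments and 17 as variable pseudogenes. The sequences below are the last 240 bases of the annotated transcript, all inside a single coding exon and read 5′ to 3′ on the strand of the gene, from GENCODE release 21 on mm10. They are germline reference sequences, not sequences read from the libraries. The first set holds the most counted segment of each chain type, and the others are those on which the usage results turn. Capitals mark the codons for tyrosine, tyrosine or phenylalanine, and cysteine at the end of the framework, where the joined D or J segment follows shortly after.

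Ighv1-26 (chr12:114788372-114788611, minus strand): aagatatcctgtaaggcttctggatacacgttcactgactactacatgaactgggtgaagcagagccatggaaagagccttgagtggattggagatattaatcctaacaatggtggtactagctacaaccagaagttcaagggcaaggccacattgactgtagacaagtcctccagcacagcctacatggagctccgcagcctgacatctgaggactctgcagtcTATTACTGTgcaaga
Igkv1-117 (chr6:68121588-68121827, plus strand): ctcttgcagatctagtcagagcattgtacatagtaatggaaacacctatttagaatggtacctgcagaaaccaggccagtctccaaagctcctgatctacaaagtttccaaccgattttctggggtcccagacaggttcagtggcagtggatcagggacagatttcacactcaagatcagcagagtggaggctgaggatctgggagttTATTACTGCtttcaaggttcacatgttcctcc
Iglv1 (chr16:19085017-19085256, minus strand): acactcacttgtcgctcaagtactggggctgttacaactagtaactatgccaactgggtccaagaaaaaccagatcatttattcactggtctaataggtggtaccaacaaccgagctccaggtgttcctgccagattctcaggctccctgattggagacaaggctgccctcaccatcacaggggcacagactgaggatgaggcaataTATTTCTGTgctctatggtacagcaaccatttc
Igkv5-43 (chr6:69823355-69823594, minus strand): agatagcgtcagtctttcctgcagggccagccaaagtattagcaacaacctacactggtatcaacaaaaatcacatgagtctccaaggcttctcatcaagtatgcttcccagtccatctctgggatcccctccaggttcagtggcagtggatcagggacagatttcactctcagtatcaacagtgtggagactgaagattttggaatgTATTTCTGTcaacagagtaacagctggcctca
Igkv14-130 (chr6:67791272-67791511, plus strand): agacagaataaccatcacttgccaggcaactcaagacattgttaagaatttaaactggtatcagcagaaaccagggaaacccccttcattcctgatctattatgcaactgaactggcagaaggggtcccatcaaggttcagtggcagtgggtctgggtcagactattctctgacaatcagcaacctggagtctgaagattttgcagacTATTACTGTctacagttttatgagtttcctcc
Ighv14-3 (chr12:114059845-114060084, minus strand): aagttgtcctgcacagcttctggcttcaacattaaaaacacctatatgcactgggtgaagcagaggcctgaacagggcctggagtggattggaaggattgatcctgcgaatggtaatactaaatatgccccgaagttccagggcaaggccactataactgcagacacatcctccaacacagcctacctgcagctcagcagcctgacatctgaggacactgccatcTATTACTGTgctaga

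The search for this motif allowed TAT or TAC, then TAT, TAC, TTT or TTC, then TGT or TGC, in any frame and on both strands. It was present in 207 of the 215 members, a share of 96.3%, and in 1047 of 20758 other transcripts of 200 to 480 bases, a share of 5.04%. The motif is a description of the annotated sequences. Igkv4-72 and Igkv4-68, both of the Igkv4 family and both high in NC 3, differ at 9 of the 240 positions. Capitals mark those positions here, and the pair is shown because near-identical segments can share reads.

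Igkv4-72 (chr6:69226854-69227093, minus strand): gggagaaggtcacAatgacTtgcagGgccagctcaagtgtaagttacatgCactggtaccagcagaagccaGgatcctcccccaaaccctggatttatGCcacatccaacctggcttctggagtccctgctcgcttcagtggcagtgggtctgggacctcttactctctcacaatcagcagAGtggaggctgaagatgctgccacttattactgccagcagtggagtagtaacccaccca
Igkv4-68 (chr6:69304834-69305073, minus strand): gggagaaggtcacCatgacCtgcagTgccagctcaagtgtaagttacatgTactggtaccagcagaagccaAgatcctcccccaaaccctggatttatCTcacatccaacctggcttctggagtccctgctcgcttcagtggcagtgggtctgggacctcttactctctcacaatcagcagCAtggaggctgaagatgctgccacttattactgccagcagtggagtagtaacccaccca

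Counts were spread over many segments. The 10 segments with the largest summed count held 25.9% of all segment counts, 31 segments held 50%, and 108 held 90%. The summed count ranged from 60 to 20207, with a median of 1428. In order, the leading 10 were Iglv1, Igkv1-117, Igkv10-96, Igkv1-135, Igkv19-93, Igkv1-110, Igkv17-127, Ighv1-26, Igkv6-15 and Igkv4-72, of which 8 are kappa segments. These sums chose the members and are given as a description.

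Iglv1 took 4.20%, 3.66%, 3.21%, 4.0%, 3.53% and 3.17% of segment counts in burn 1 to 6, and 2.53%, 3.63%, 3.89% and 3.63% in NC 1 to 4. NC 1 was the lowest library, and the other 3 NC libraries lay inside the burn range. Iglv3 took 1.73 ± 0.23% in burn and 1.58 ± 0.64% in NC, and Iglv2 took 0.932 ± 0.158% in burn and 0.946 ± 0.224% in NC (SD, n = 6 and n = 4). No lambda segment separated the groups.

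The division between chain types was much the same in burn and NC. Heavy chain segments held 33.0 ± 0.93% of segment counts in burn and 33.6 ± 2.05% in NC. Kappa segments held 60.7 ± 1.12% in burn and 60.5 ± 2.41% in NC, and lambda segments held 6.29 ± 0.65% in burn and 5.95 ± 0.38% in NC (SD, n = 6 and n = 4). Each of these differences was smaller than the SD within the NC or the burn group. Burn minus NC, the difference in percentage points was -0.54 for heavy chain and 0.20 for kappa segments. Without NC 3 it was -1.48 and 1.29, and without NC 2 it was 0.077 and -0.53. The ratio of kappa to lambda constant region RNA is not the same quantity and was not used here. The 17 pseudogenes together held 0.586 ± 0.070% in burn and 0.556 ± 0.168% in NC.

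The total amount of segment RNA overlapped between the groups. Only in this paragraph, CPM was taken on the plain library total, without TMM scaling. Summed over the members, segment counts came to 1330 to 2111 CPM in burn, with a median of 1772 CPM, and to 1137 to 1788 CPM in NC, with a median of 1638 CPM. The means were 1730 ± 323 CPM in burn and 1550 ± 296 CPM in NC (SD, n = 6 and n = 4), a difference of 179 CPM, within the spread of either group. The difference was 41.6 CPM without NC 1, the lowest NC library, and 103 CPM without burn 2. In bulk RNA, fewer B cells and less RNA per B cell cannot be told apart.

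Each segment's level, its counts scaled to the whole library, was then compared between burn and NC with edgeR's quasi-likelihood test over all 17268 genes that passed the filter on low counts. That filter kept 204 members. The 11 left out were Igkv11-106, Igkv13-78-1, Igkv4-71, Igkv18-36, Igkv7-33, Igkv6-29, Ighv1-23, Ighv1-37, Ighv8-7, Ighv1-71 and Ighv1-83, of which 4 are pseudogenes. No segment passed a Benjamini-Hochberg adjusted p of 0.05, and the smallest adjusted p of a segment was 0.393. Over all genes the same test called 0 of 17268, a background of 0%. DESeq2 called 85 of 17268 genes, a background of 0.492%, with 0.0869% higher and 0.405% lower in burn, and 0 segments. It gave Igkv4-72 no adjusted p, so that segment could not be called.

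At an unadjusted p under 0.05, 16 of 204 segments, or 7.84%, had a higher level in burn, against a background of 4.25% of all genes. None had a lower level, against a background of 7%, and 6 had one without NC 1, 3 without NC 4, and 1 without each of burn 2, NC 2 and NC 3. The 16 were 8 kappa segments, Igkv14-130, Igkv2-112, Igkv1-99, Igkv10-95, Igkv4-73, Igkv4-50, Igkv5-43 and Igkv6-15, and 8 heavy chain segments, Ighv2-9, Ighv7-1, Ighv3-4, Ighv1-5, Ighv1-9, Ighv1-11, Ighv1-22 and Ighv1-54. The log2 difference in level was above 0 in 154 of 204 segments, or 75.5%, against 54.7% of all genes, with a median of 0.17 over the segments and 0.02 over all genes tested. All segments of a library share its B cell RNA, so they do not vary independently, and these counts describe the libraries and are no test. The number of segments with a higher level in burn at that unadjusted p was 31 without burn 1 and 26 without NC 4, and it was 5, 7 and 8 without burn 2, burn 4 and burn 5 and 6, 8 and 10 without NC 1, NC 2 and NC 3. The share of all genes at that p was not taken in the fits without single libraries. Their counts, in either direction, therefore cannot be set against a background.

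B cell identity genes had higher means in burn as well, also without passing the test. The log2 difference was above 0 in 9 of 9 B cell markers, with a median of 0.32 and 0 called. Pou2af1, a coactivator that works with octamer factors at immunoglobulin promoters, averaged 223 ± 36.9 CPM in burn and 148 ± 34.4 CPM in NC (SD, n = 6 and n = 4), a log2 difference of 0.59 (SE 0.16) with an edgeR adjusted p of 0.393. All 3 octamer factor genes had a log2 difference above 0, with a median of 0.22, against 0.02 over all genes tested. Among constant regions, 3 of 11 tested genes had a difference above 0 and 8 below, with a median of -0.11. Of 12 genes of antibody secretion, 4 lay above 0 and 8 below, with a median of -0.13. Of Rag1, Rag2 and Dntt, which serve the joining of segments in developing B cells, Rag1 and Dntt were tested and both lay below 0, and Rag2 had a library at 0. None of these lists held a called gene in either direction. Markers of some other cell types lay below 0 in the same comparison, with 0 called. This held for 6 of 6 natural killer markers (median -0.69), 6 of 6 neutrophil markers (median -1.03), 5 of 5 platelet markers (median -0.72) and 5 of 5 stromal markers (median -2.14). T cell markers were divided, with 3 of 7 above 0 and 4 below (median -0.03). Of 5 red cell markers, 1 lay above 0 and 4 below (median -0.18), and neither list held a called gene. Neutrophil markers added up to 609 to 1897 CPM in burn, and to 4725, 419, 739 and 3662 CPM in NC 1 to 4. Stromal markers added up to 3.61 to 22.0 CPM in burn and 21.8 to 53.7 CPM in NC. The part of B cell number and of other cells in the segment levels was not tested.

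Usage removes differences in the total amount of segment RNA. With the summed segment count of a library as its size, edgeR called 0 of 204 segments, with a smallest adjusted p of 0.470, and 0 of 17268 genes, a background of 0%. DESeq2 with the same sizes called 22 genes, a background of 0.127%, with 0.0174% higher and 0.11% lower in burn, and 0 segments. Here too it gave Igkv4-72 no adjusted p, so that segment could not be called. At an unadjusted p under 0.05, 2 segments had a higher share in burn, which is 0.98% of the members against a background of 0.324%. Another 5 had a lower share in burn, which is 2.45% against a background of 6.5%. Leaving out 1 library at a time gave 2 to 13 segments with a higher share, the most without NC 4, and 2 to 9 with a lower share, the most without NC 1. The background of these fits was not taken. The groups did not overlap in 2 segments with higher usage in burn, 0.98% against a background of 0.133%, and in 0 with lower usage, against 0.22%. The background here is every tested gene, the segments included, divided by the segment total, and it carries the B cell content of each library.

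**Figure D1:**
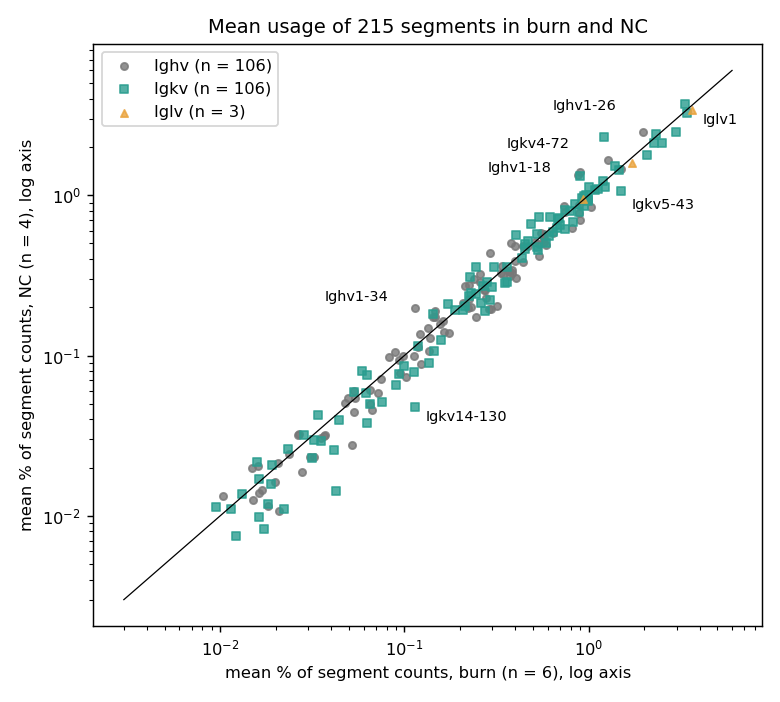
Mean share of segment counts in NC (n = 4, vertical axis, percent, log scale) against burn (n = 6, horizontal axis, percent, log scale) for 215 segments, with chain type by marker and colour. The black line marks equal usage. Most segments lie near the line, with Igkv4-72 above it (1.21% in burn, 2.32% in NC) and Igkv5-43 and Igkv14-130 below it.

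Igkv5-43, a kappa segment at chr6:69823355-69823943 on the minus strand, was one of the pair without overlap. Its share was 1.53%, 1.76%, 1.47%, 1.28%, 1.63% and 1.31% in burn 1 to 6, and 1.01%, 1.27%, 0.911% and 1.04% in NC 1 to 4. The lowest burn library, burn 4, and the highest NC library, NC 2, were separated by less than the counting error of either share. The mean was 1.5 ± 0.18% in burn and 1.06 ± 0.15% in NC (SD, n = 6 and n = 4). The log2 difference in usage was 0.50 (SE 0.18, 95% interval 0.12 to 0.88), with an edgeR adjusted p of 0.482. In level the log2 difference was 0.62 (SE 0.21), with an adjusted p of 0.393.

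The closest member to Igkv5-43 is Igkv5-45, 98.4% identical, so reads could be divided between them. Igkv5-45 took 0.158 ± 0.016% in burn and 0.125 ± 0.020% in NC. The pair added up to 1.44% to 1.94% in burn and 1.02% to 1.40% in NC, again without overlap. Igkv5-43 makes up most of that sum, so the lack of overlap was largely carried over from it. Burn 4, the lowest burn library, and NC 2, the highest NC library, again lay close together.

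Igkv14-130, at chr6:67791046-67791511 on the plus strand, was the other. It is rare, with 36, 174, 60, 68, 41 and 45 counts in burn 1 to 6 and 21, 25, 19 and 33 in NC 1 to 4. Its shares were 0.0824%, 0.242%, 0.101%, 0.0938%, 0.0631% and 0.102% in burn, and 0.0558%, 0.0451%, 0.0346% and 0.0558% in NC. Burn 2 stood well above the other 5 burn libraries, and burn 5 lay close to NC 1 and NC 4. The log2 difference in usage was 1.26 (SE 0.41, 95% interval 0.39 to 2.13), with an edgeR adjusted p of 0.470. It was the one segment whose level also did not overlap, 0.49% of the members against a background of 1.34%, and 0 segments had a lower level without overlap, against 0.683%. Without burn 2 the log2 difference was 0.89 in usage and 0.90 in level, against 1.46 in level with all libraries.

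Among the 5 segments with lower usage in burn at that unadjusted p, Igkv4-72 had the largest difference. This kappa segment, at chr6:69226854-69227433 on the minus strand, took 1.12%, 1.26%, 1.11%, 1.15%, 1.49% and 1.11% in burn 1 to 6, and 1.25%, 1.44%, 5.53% and 1.05% in NC 1 to 4. NC 3 alone was high, with 3035 of 54857 segment counts (95% Wilson interval 5.34% to 5.73%), and the other 3 NC libraries overlapped with burn. The log2 difference in usage was -0.94 (SE 0.36, 95% interval -1.71 to -0.17), with an edgeR adjusted p of 0.523. In level it was also -0.94, and 0.15 without NC 3.

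Ighv1-18 took 0.878 ± 0.118% in burn and 1.33 ± 0.45% in NC, with a log2 difference in usage of -0.60 (SE 0.22) and an adjusted p of 0.503. NC 2, NC 3 and NC 4 had 1.83%, 1.35% and 1.39%, above the burn range of 0.686% to 1.01%, and NC 1 had 0.741%, inside it. Ighv1-81 was high in NC 1 and NC 2 instead, with 2.05% and 1.88%, against at most 1.07% in the other 8 libraries. Its log2 difference was -0.63 (SE 0.27), with an adjusted p of 0.627, and it was -0.38 without NC 1. Ighv3-6 and Igkv9-124 differed by -0.38 and -0.49 on the same scale, with adjusted p of 0.732 and 0.701, and both had their highest share in NC 1. Without NC 1 the difference of Ighv3-6 was -0.23. The NC libraries that were high thus differed from segment to segment.

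**Figure D2:**
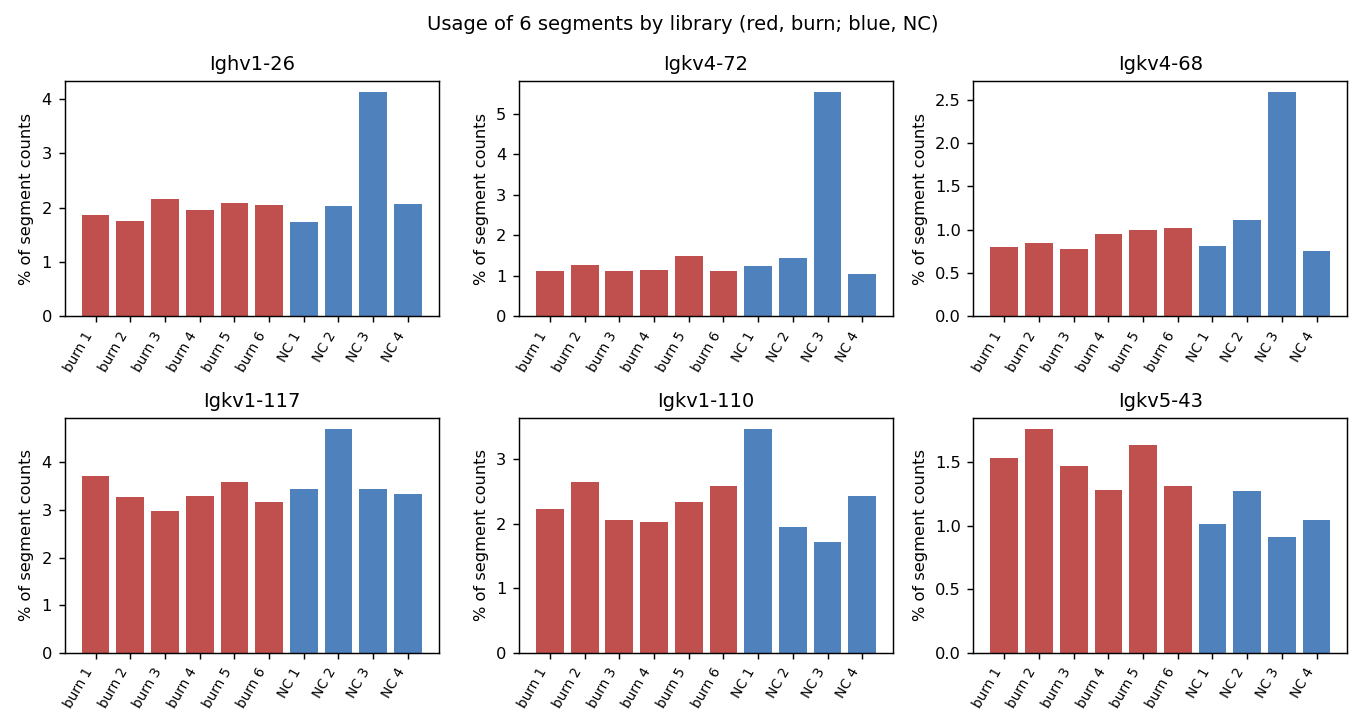
Share of segment counts (vertical axis, percent, from 0) for 6 segments in burn 1 to 6 (red) and NC 1 to 4 (blue), 1 bar per library. NC 3 stands out for Igkv4-72 (5.53%), Igkv4-68 (2.58%) and Ighv1-26 (4.12%), NC 2 for Igkv1-117 (4.70%) and NC 1 for Igkv1-110 (3.47%), while Igkv5-43 is higher in each burn library than in each NC library.

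Ighv1-26, at chr12:114788372-114788805 on the minus strand, was the most used heavy chain segment in 9 of 10 libraries, the exception being NC 1, where Ighv3-6 led. It took 1.86%, 1.76%, 2.15%, 1.96%, 2.08% and 2.05% of segment counts in burn 1 to 6, and 1.74%, 2.02%, 4.12% and 2.06% in NC 1 to 4. NC 3 alone was high, and there the segment made up 13.4% of heavy chain counts. The mean difference, burn minus NC, was -0.51 percentage points, and 0.036 without NC 3. Igkv1-117 took 3.71%, 3.27%, 2.99%, 3.29%, 3.59% and 3.18% in burn 1 to 6, and 3.43%, 4.70%, 3.45% and 3.34% in NC 1 to 4, so NC 2 was high and the rest were mixed. Its closest member, Igkv1-110, is 97.5% identical and was high in another library, NC 1, with 3.47%, against 2.03% to 2.65% in burn.

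Segments that were high in one library against the rest were most numerous in NC 3 and NC 2. A segment was counted when it had at least 100 counts in a library and at least 2 times the median share of the other 9 libraries. Between 101 segments, in NC 1, and 139, in burn 2 and burn 4, reached that count. The share of all genes that meet this rule was not taken, so these numbers have no background. The median of the other 9 also leans more to burn for an NC library than for a burn library. NC 3 held 7 such segments, Igkv4-72, Ighv14-3, Igkv4-68, Ighv1-36, Ighv1-34, Ighv1-26 and Igkv4-58. Together they took 14.4% of its segment counts, and their median shares in the other 9 libraries added up to 4.72%. Each was picked for at least 2 times that median, so an excess of this size was fixed by the choice. NC 2 held 5, Ighv1-12, Ighv9-2, Ighv1-81, Ighv5-12 and Ighv11-2, with 3.34%. NC 1 held 3, Igkv1-122, Ighv1-81 and Igkv4-80, with 3.13%. NC 4 held 0. Burn 1 to 6 held 1, 1, 0, 0, 3 and 2. In burn 5, which held 3, Ighv5-15, Ighv1-76 and Ighv12-3 took 1.43%. The highest ratio in burn 3 was 1.68 for Ighv1-77 and in burn 4 it was 1.93 for Ighv1-63.

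Ighv14-3, a heavy chain segment whose sequence is given above, took 0.248% to 0.360% in burn with a median of 0.276%, and 0.250%, 0.253%, 0.933% and 0.313% in NC 1 to 4. Only NC 3 lay outside the burn range. Ighv11-2 and Ighv12-3, which in mice are known from B-1a cells, took 0.223 ± 0.031% and 0.113 ± 0.055% in burn, and 0.274 ± 0.157% and 0.0996 ± 0.0480% in NC.

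Evenness of usage was measured as the effective number of segments, the exponential of the Shannon entropy of the shares within a chain type, which falls as fewer segments hold more of the counts. For heavy chain segments it was 64.7, 64.5, 64.1, 63.4, 63.4 and 64.4 in burn 1 to 6, and 59.8, 58.8, 53.0 and 63.5 in NC 1 to 4. The 6 burn libraries lay within a narrow band, NC 4 lay in it, and NC 1, NC 2 and NC 3 lay below it. For kappa segments it was 57.0, 58.1, 58.7, 59.3, 57.3 and 57.8 in burn, and 57.5, 55.5, 52.2 and 59.3 in NC. There NC 2 and NC 3 lay below the burn range, and NC 1 and NC 4 lay inside it.

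The means were 64.1 ± 0.56 in burn and 58.8 ± 4.38 in NC for heavy chain segments, and 58.1 ± 0.87 in burn and 56.1 ± 3.05 in NC for kappa segments (SD, n = 6 and n = 4). Without NC 3 the difference in means, burn minus NC, was 3.39 in place of 5.32 for heavy chain segments and 0.63 in place of 1.94 for kappa segments. Without NC 4 it was 2.99 for kappa segments. The 5 leading heavy chain segments of a library held 20.7 ± 0.70% of heavy chain counts in burn and 25.4 ± 2.97% in NC. As sums over the chosen members, these values were given no p.

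**Figure D3:**
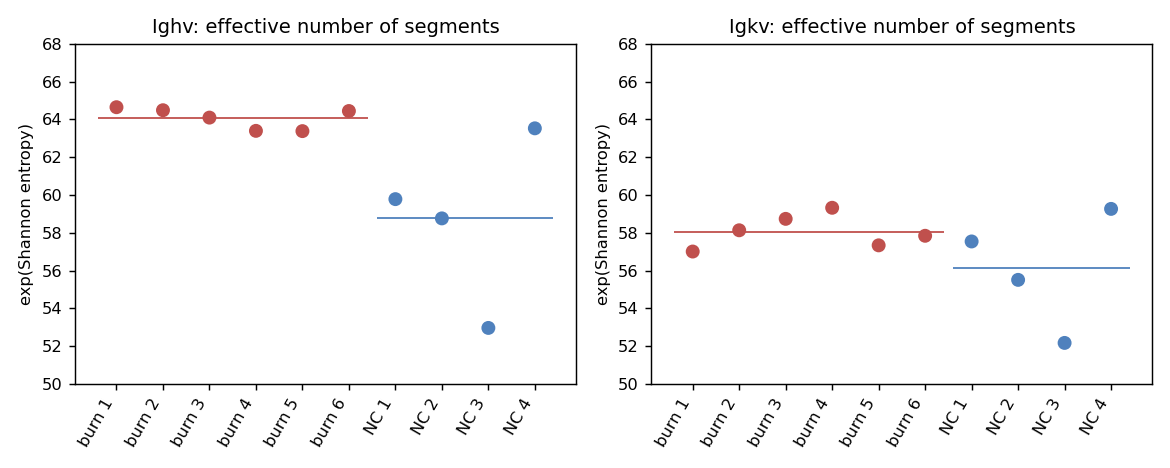
Effective number of segments (vertical axis, exponential of the Shannon entropy, no unit) for heavy chain segments (left panel) and kappa segments (right panel) in burn 1 to 6 (red) and NC 1 to 4 (blue), 1 point per library, with horizontal lines at the group means. In the left panel burn lies between 63.4 and 64.7, while NC 1, NC 2 and NC 3 lie at 59.8, 58.8 and 53.0.

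Igha and Jchain, which plasma cells express, were highest in NC 2 and NC 3, the least even libraries. Igha, the constant region of IgA, had 71.3, 122, 106, 92.0, 157 and 113 CPM in burn 1 to 6, and 131, 312, 662 and 93.3 CPM in NC 1 to 4. Jchain, which links secreted IgA and IgM into polymers, had 19.3 to 46.1 CPM in burn, and 34.2, 90.2, 160 and 27.5 CPM in NC 1 to 4. NC 2 and NC 3 were above every burn library for both genes. The same held for Ighg1, Ighg2b, Ighg2c and Ighg3, and not for the other constant regions. It also held for summed natural killer markers (505 and 532 CPM, at most 272 CPM in burn), platelet markers and red cell markers. Summed B cell, T cell, neutrophil and stromal markers were not above burn in both. The pattern was thus not particular to plasma cell genes. NC 1, which was also less even for heavy chain segments, lay within the burn range for Igha and Jchain. The 11 plasma cell markers, none of them at 0 in a library, added up to 303 to 358 CPM in burn and 304 to 497 CPM in NC. Without Jchain the other 10 added up to 278 to 312 CPM in burn, and to 270, 314, 338 and 326 CPM in NC 1 to 4, so NC 4, the most even NC library, lay between NC 2 and NC 3. Xbp1, Txndc5 and Irf4 made up most of that sum. Sdc1, a surface marker of plasma cells, had 4.39 to 7.70 CPM in burn, and 3.37, 3.85, 4.89 and 5.89 CPM in NC 1 to 4. Tnfrsf17 had at most 0.833 CPM in burn, and 0.184, 1.27, 2.08 and 0.256 CPM in NC 1 to 4. Derl3 had at most 1.61 CPM in burn, and 1.56, 2.40, 1.91 and 1.31 CPM in NC 1 to 4. Both are low, and both were above every burn library in NC 2 and NC 3, as was Txndc5. Xbp1, Irf4, Mzb1, Prdm1, Sdc1, Fkbp11 and Creld2 were not above burn in both. In 8 of the 11 the log2 difference was below 0, with 0 called, and their part in the usage of NC 2 and NC 3 was not tested.

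Whole profiles of usage also put NC 3 farthest from burn and NC 4 nearest. The share of usage that would have to move to turn one library's profile into another's was 6.41% to 8.31% between burn libraries, with a median of 7.45% over 15 pairs. It was 10.4% to 18.5% between NC libraries, with a median of 15.1% over 6 pairs, and 6.82% to 17.0% between a burn and an NC library, with a median of 11.7% over 24 pairs. The median distance to the burn libraries was 7.44% for NC 4, 11.7% for NC 1, 11.7% for NC 2 and 16.4% for NC 3. NC 4 therefore lay as near to the burn libraries as these lay to each other. The chi-square per degree of freedom of segment counts was 4.76 or more for each pair within burn and 10.05 or more within NC, so no pair agreed within counting error, and all 10 libraries were kept as separate samples.

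**Figure D4:**
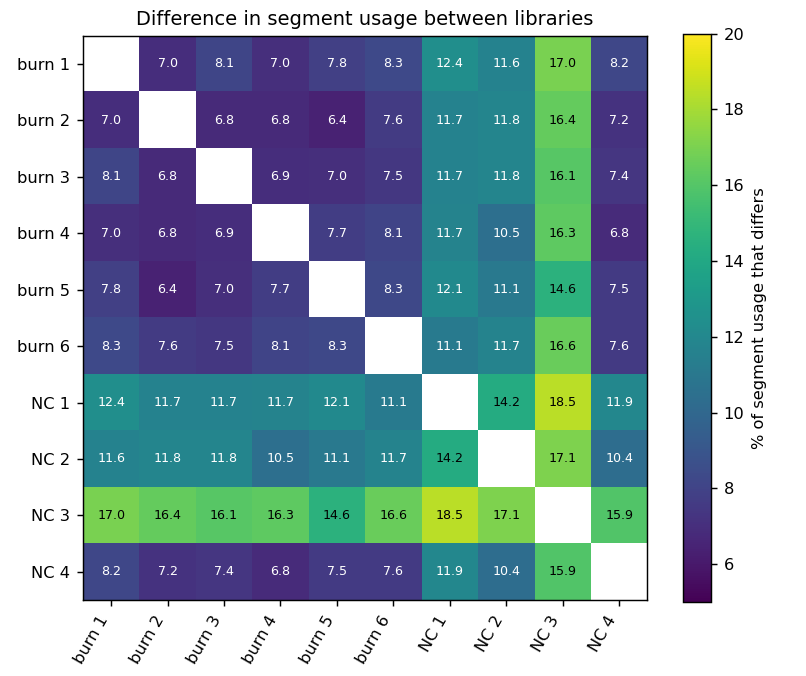
Difference in segment usage for each pair of libraries, as the percent of usage that differs (colour and printed value), with burn 1 to 6 before NC 1 to 4 on both axes. Pairs within burn range from 6.41% to 8.31%, pairs within NC from 10.4% to 18.5%, and the row of NC 4 resembles those of the burn libraries.

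Spread was wider in NC both for segments and for other genes. The coefficient of variation of the share was higher in NC in 147 of 215 segments, or 68.4%, with medians of 17.5% in burn and 27.5% in NC. Among segments with at least 1000 counts it was higher in NC in 75.4%. Other genes tested, divided by the segment total in the same way, had a higher one in NC in 59.5%. On the CPM scale it was higher in NC in 61.8% of the 204 tested segments and in 75.7% of the other genes. Segments thus stood above other genes on the usage scale and below them on the CPM scale. The order depended on the divisor, since the segment total is not a natural scale for other genes. The usage values also cover all 215 segments, while the other genes had passed the filter on low counts. No conclusion about segments is drawn from it.

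Families, named by the number before the hyphen, numbered 38 among the members. The Ighv1 family, with 54 members, held 18.6 ± 0.71% of segment counts in burn and 19.8 ± 0.48% in NC. The Igkv4 family, with 30 members, held 9.72 ± 0.42% in burn and 11.1 ± 2.92% in NC, where NC 3 had 15.4%. Without Igkv4-72 and Igkv4-68 the Igkv4 family held 7.62 ± 0.34% in burn and 7.42 ± 0.49% in NC, so the higher NC mean of the family lay in that pair. The Igkv3 family held 4.39 ± 0.26% in burn and 5.10 ± 0.43% in NC.

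Of the 15 families with at least 2% of counts, the Igkv5 family alone showed no overlap between the groups. It held 2.74% to 3.51% in burn and 2.25% to 2.54% in NC, with means of 3.11 ± 0.31% and 2.45 ± 0.13%. Its other 4 members, without Igkv5-43, held 1.61 ± 0.17% in burn and 1.39 ± 0.11% in NC and overlapped, at 1.40% to 1.80% in burn and 1.26% to 1.52% in NC. The family values therefore rest in part on the segment already described.

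**Figure D5:**
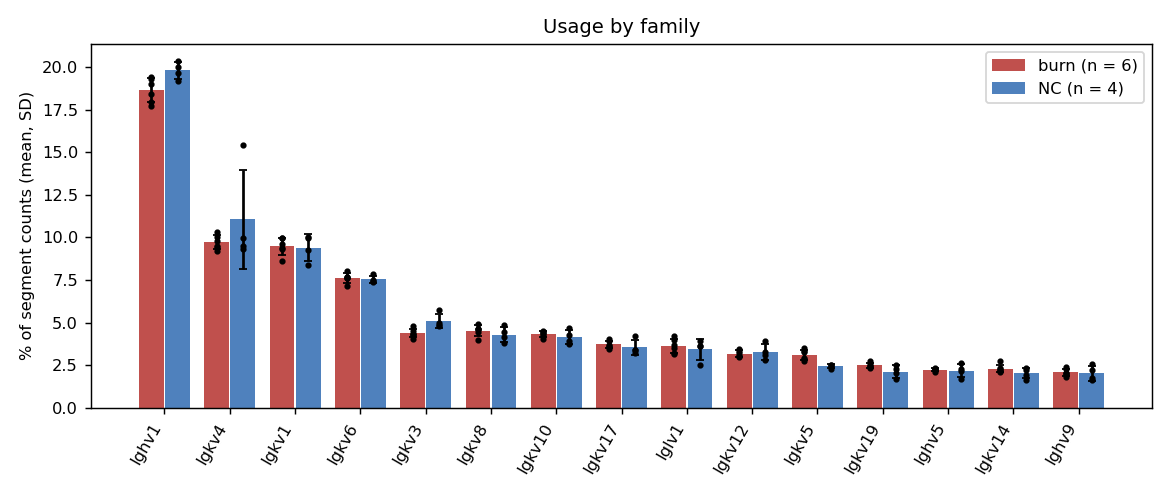
Share of segment counts (vertical axis, percent, from 0) by family in burn (red, n = 6) and NC (blue, n = 4), for families with at least 2% of counts. Bars are means, whiskers are SD and points are libraries. Igkv4 has 1 NC library at 15.4%, and Igkv5 is the family in which the points do not overlap.

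Position along the loci gave no separation of the groups. The heavy chain members were divided by distance from Ighm into proximal, middle and distal groups of 36, 35 and 35 segments. The distal group held 35.1 ± 1.5% of heavy chain counts in burn and 36.2 ± 3.0% in NC, and the proximal group 30.6 ± 0.83% in burn and 29.6 ± 1.4% in NC. Among kappa members the middle group held 20.3 ± 0.80% of kappa counts in burn and 22.3 ± 4.1% in NC. NC 3, with 28.4%, lay above all other libraries, which had 19.3% to 21.3%, and Igkv4-72, Igkv4-68 and Igkv4-58 lie in that stretch. The kappa locus holds segments on both strands, which join by inversion or by deletion, and the 41 on the plus strand held 43.9 ± 1.1% of kappa counts in burn and 43.8 ± 2.4% in NC.

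How far reads can tell these segments apart limits each of the values above. The median identity of a member to its closest relative among the members was 94.6% over the annotated transcripts. A total of 34 members, with 19.8% of the counts, had another member at 97% identity or more, and 100 members, with 60.5% of the counts, had one at 95% or more. The counting of reads that match several segments is not given in the sources used here, so usage of a single segment of such a group is uncertain. Somatic mutation also moves the transcripts of some cells away from the germline sequence. Neither point was tested.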

How the data were processed

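Messenger RNA of mouse blood was sequenced as paired-end libraries, per the labels' protocols. The authors deposited 1 table with a count and an FPKM value per gene and library. The deposited counts were whole numbers whose sums differed between libraries, in columns named as counts per the file headers. The authors' FPKM values, scaled by gene length and library total, served only as an alternative. The submitters' processing notes name mm10 as the build. Not given in the sources used here are the aligner, the counter, and how strand and reads that match several segments were treated.

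Members and gene lists were chosen with earlier results of these data known. All 215 members were placed on mm10 through GENCODE mouse release 21, which also gave their sequences. The filter on low counts was filterByExpr at a minimum of 10, and burn was compared with NC without covariates by the quasi-likelihood test of edgeR 4.0.16 in R 4.3.3. Library sizes were TMM-scaled for levels and equal to the summed segment count for usage. P-values were adjusted by Benjamini-Hochberg over the 17268 genes tested, and 0.05 was the threshold. The model was tested on simulated data. Alternatives used DESeq2 1.42.0 and limma 3.58.1, other filters and scalings, log2(FPKM + 1) and log2(FPKM + 0.1), a replicate block, and fits that leave out libraries. SD is over libraries. Wilson intervals at the 95% level cover counting error only, since the reads carry no molecular identifiers here. Half-widths were 0.0735 to 0.191 percentage points for named shares of at least 1% and 0.0134 to 0.0923 for smaller ones.

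Segments are named where they had 1 of the 10 largest summed counts, 1 of the 5 smallest p-values in a direction, the highest share in a library against the other 9, or lay next to the minimum of 50. All Iglv segments and families with at least 2% of counts are included. Other names, such as those of segments with the same family or a count of a few, were chosen after their values were seen. Promoters and genomic flanks of the segments were not analysed here, and some genes of the gene lists are not reported here.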

Additional observations from a re-analysis of the deposited data

Results flagged for a closer look

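Of 70 sets of burn or NC values, 9 held a library that stood apart from the others of its group by Dixon's test at the 95% level. Most sets were shares of segments named by summed count, p-value or highest share in a library. The rest were the chain type shares, the effective numbers of heavy chain and kappa segments, and the total segment CPM. All 9 were shares of single segments. Chance gives about 1 in 20 for sets not picked by their values. That rate does not apply here, since 6 of the 9 are segments named because their share in that same library was the highest against the other libraries. Among NC libraries, NC 3 stood apart with 5.53% for Igkv4-72 and 4.12% for Ighv1-26, where the other 3 NC libraries had 1.05% to 1.44% and 1.74% to 2.06%. NC 2 stood apart with 4.70% for Igkv1-117. NC 1 stood apart with 0.537% for Igkv1-122, where the others had 0.126% to 0.144%, and on the low side with 1.95% for Igkv1-135, where the others had 2.62% to 2.75%. Among burn libraries, burn 2 stood apart with 0.242% for Igkv14-130, burn 4 with 0.244% for Ighv1-63, burn 5 with 0.211% for Ighv5-15 and burn 6 with 0.310% for Ighv9-2. The 4 segments marked in burn took at most 0.310% in any burn library. Of the 5 marked in NC, 4 were among the 10 with the largest summed count.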

How the results depend on the processing

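In both comparisons 0 segments were called under every alternative run, with the smallest adjusted p of a segment between 0.0848 and 0.861 for level and between 0.132 and 0.9998 for usage. In the DESeq2 alternative Igkv4-72 had no adjusted p and could not be called. With the replicate number as a block 0 segments were called in level and 0 in usage, with smallest adjusted p of 0.861 and 0.776. Deviations of same-numbered libraries correlated at -0.069, -0.033, -0.125 and 0.504, so the numbers were not taken to pair the samples. Without single libraries the difference in share ran from -1.48 to 0.077 percentage points for heavy chain, -0.53 to 1.29 for kappa and 0.13 to 0.45 for lambda segments. The effective number differed by 5.32 for heavy chain segments and 1.94 for kappa segments, burn minus NC, and by 2.42 and -0.34 without NC 2 and NC 3. The 2 segments without overlap in usage became 1 when near-identical segments were left out. That setting removed Igkv5-43 itself, which is 98.4% identical to Igkv5-45. The drop was therefore fixed by the setting and cannot show whether the separation of Igkv5-43 holds. Without NC 2 and NC 3 the number was 17, and without single libraries it was 2 to 15. Fewer libraries by themselves make separation easier. Igkv4-72 reversed in level to 0.15 without NC 3 and 0.35 without NC 2 and NC 3, and in usage to 0.072 without NC 2 and NC 3. Without single libraries its level difference ran from -1.25 to 0.15. At an unadjusted p under 0.05, segments higher in burn in level numbered 5 to 32 over the alternatives, with 25 without TMM factors, 30 and 32 with limma on FPKM and 24 with the block. The share of all genes at that p was not taken under the alternatives, so it is not known whether other genes moved likewise. The median log2 usage difference of the segments was 0.07, and -0.03 with median-of-ratios sizes over the segments. That of all genes in the usage fit was -0.08, and -0.24 without NC 2 and NC 3. Depth limits mainly segments below 0.1% of counts.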

Other observations

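Igkv14-126 and Igkv4-91, light chain segments which in mice are known from B-1a cells together with Ighv11-2 and Ighv12-3, were looked up after the other values had been seen. Igkv14-126 took 0.523 ± 0.120% of segment counts in burn and 0.477 ± 0.115% in NC (SD, n = 6 and n = 4). Igkv4-91 took 0.637 ± 0.0996% in burn and 0.589 ± 0.112% in NC. The groups overlapped for both. Ighv11-2 had its highest share, 0.448%, in NC 2, and 0.190% to 0.277% in burn. Ighv11-2, Ighv12-3 and Igkv14-126 all had their lowest share in NC 1, at 0.0903%, 0.0398% and 0.364%, and Igkv4-91 had its lowest in NC 3, at 0.485%. Ighv12-3 and Igkv14-126 were highest in burn 1 and Igkv4-91 in burn 2.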
